A study of Homo sapiens with 19 samples.

Results

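The 348 transcripts described here were small noncoding RNAs that had a value above 0 in at least 1 of 2 rRNA-depleted RNA-seq libraries of SH-SY5Y, a human neuroblastoma cell line. They were picked by gene type: every transcript whose identifier GENCODE places under snRNA, snoRNA, scaRNA, misc_RNA or miRNA was taken, which gave 6979 annotated transcripts, and those with a value in either library were kept. They made up 0.135% of the 256980 transcripts of the table and comprised 269 misc_RNA, 47 snoRNA, 20 snRNA, 9 scaRNA and 3 miRNA transcripts. One library came from untreated SH-SY5Y cells (Ctrl) and the other from SH-SY5Y cells kept in 500 μM sodium arsenite (AS), an oxidative stressor that drives stress granule (SG) assembly, for 1 h. The labels name no genetic change in either. SH-SY5Y is 1 line, each condition had 1 library, and no library of a repeat culture enters, so no difference below carries a test. Intervals in parentheses are exact 95% intervals of the AS/Ctrl ratio and cover counting error only, not the spread between cultures.

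Values are in FPKM, reads divided by transcript length in kilobases and by the size of the library. The libraries held 13291959 (Ctrl) and 11281587 (AS) reads by the recovered scale, so equal read numbers in both gave an AS/Ctrl ratio of 1.18. The median ratio of protein-coding transcripts above 1 FPKM in both libraries was 1.19 (0.25 on the log2 scale), and each ratio below is read against that shift. Of 11 genes that mark SH-SY5Y, 9 exceeded 10 FPKM in a library, though tyrosine hydroxylase (TH) was at 0.169 and 0.199 FPKM. None of 9 markers of fibroblasts, blood, epithelium or endothelium exceeded 10 FPKM, and their summed level was 8.47 FPKM in Ctrl and 10.9 FPKM in AS. Of 7 arsenite response genes, 5 had a ratio above 2. The other 2, HSPA1A and HSPA1B, were above 0 only in AS and very low there, at 0.0834 and 0.0352 FPKM.

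Small noncoding RNAs mostly work as guides or scaffolds in ribonucleoprotein particles. Spliceosomal snRNAs recognise splice sites. C/D box snoRNAs direct methylation and H/ACA box snoRNAs direct pseudouridylation of ribosomal RNA, scaRNAs do the same for snRNAs in Cajal bodies, and the U3 snoRNA is needed for early cleavage of the ribosomal RNA precursor. The 7SK RNA holds the transcription elongation factor P-TEFb inactive, the 7SL RNA is the scaffold of the signal recognition particle, and miRNA hairpins are precursors of the short RNAs that repress mRNAs. GENCODE files RN7SK under snRNA and 7SL genes under misc_RNA, and both families left many retrotransposed copies in the genome.

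The sequences of several RNAs on which the results turn are given first, 5′ to 3′ and on the RNA's strand, from GENCODE on GRCh38, so that copies that share reads can be compared by eye. RN7SK (chr6:52995621-52995948, plus strand) is shown from base 1 to 100. The capitals mark GATC, the motif in its first hairpin, which occurred 3 times here and at least once in the first 100 bases of 35.1% of the 4374 annotated transcripts that long. RNU1-1 (chr1:16514122-16514285, minus strand) is a U1 gene whose capitals mark ACTTACCTG, the stretch that pairs with 5′ splice sites, present in 48 of the 143 annotated transcripts with an RNU1 or RNVU1 symbol and 0.745% of all 6979. RNU2-2P (chr11:62841619-62841809, minus strand) is a U2 gene whose capitals mark GTAGTA, the stretch that pairs with the branch point, present in 36 of the 71 with an RNU2 symbol and 2.87% of all.
RN7SK: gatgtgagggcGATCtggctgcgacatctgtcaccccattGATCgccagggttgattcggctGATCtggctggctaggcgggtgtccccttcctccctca
RNU1-1: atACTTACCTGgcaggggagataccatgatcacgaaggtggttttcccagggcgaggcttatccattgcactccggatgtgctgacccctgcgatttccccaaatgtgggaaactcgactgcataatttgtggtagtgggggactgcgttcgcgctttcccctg
RNU2-2P: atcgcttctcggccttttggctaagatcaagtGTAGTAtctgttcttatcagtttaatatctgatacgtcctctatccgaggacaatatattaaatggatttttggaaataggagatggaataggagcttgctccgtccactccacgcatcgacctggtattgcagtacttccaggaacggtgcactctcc

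For the snoRNAs, the first 220 bases of SNORD3A (chr17:19188016-19188235, plus strand) and SNORD3B-1 (chr17:19061912-19062131, plus strand) hold the U3 RNA, and SNORD17 (chr20:17962710-17962946, minus strand) is the C/D box snoRNA with the most reads. The capitals in these mark each occurrence of TGATGA, the letters of box C, and CTGA, the letters of box D, and not every marked stretch need be a box. Both motifs were present in 72.9% of 314 annotated SNORD transcripts, in 1.87% of 214 SNORA transcripts and in 6.94% of all 6979. SNORA73A (chr1:28507366-28507571, plus strand) and SNORA73B (chr1:28508559-28508762, plus strand) are H/ACA box snoRNAs, 93.2% identical, and their capitals mark the ACA that lies 3 bases from the 3′ end. An ACA at that place was found in 66.4% of SNORA, 1.59% of SNORD and 5.19% of all 6979 transcripts. Last is mature hsa-miR-3648 from RefSeq (GRCh38.p14), with its seed, bases 2 to 8, in capitals, since the hairpin MIR3648-1 was the miRNA with the most reads. The entry is that of MIR3648-2, whose hairpin has the same bases.
SNORD3A: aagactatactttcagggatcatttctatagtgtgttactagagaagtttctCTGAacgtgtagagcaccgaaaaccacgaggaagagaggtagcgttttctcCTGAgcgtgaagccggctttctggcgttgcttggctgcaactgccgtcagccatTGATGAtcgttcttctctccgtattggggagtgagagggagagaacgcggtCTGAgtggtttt
SNORD3B-1: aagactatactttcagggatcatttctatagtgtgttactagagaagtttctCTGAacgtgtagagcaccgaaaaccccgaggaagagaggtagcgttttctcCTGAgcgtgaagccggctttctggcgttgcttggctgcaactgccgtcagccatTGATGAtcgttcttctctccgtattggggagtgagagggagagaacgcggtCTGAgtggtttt
SNORD17: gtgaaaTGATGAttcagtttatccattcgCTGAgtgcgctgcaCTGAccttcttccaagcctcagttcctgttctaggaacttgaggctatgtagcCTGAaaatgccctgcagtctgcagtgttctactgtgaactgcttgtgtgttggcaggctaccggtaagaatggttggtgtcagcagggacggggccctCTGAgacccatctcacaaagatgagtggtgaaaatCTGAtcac
SNORA73A: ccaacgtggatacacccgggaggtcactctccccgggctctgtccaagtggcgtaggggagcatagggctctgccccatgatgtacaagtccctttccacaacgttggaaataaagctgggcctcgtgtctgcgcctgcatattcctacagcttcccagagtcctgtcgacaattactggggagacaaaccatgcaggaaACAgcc
SNORA73B: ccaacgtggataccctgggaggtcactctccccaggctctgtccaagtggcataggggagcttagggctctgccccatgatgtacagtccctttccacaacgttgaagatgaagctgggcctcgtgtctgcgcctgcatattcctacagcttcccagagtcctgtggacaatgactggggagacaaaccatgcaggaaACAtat
hsa-miR-3648: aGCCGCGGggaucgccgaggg

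The share of small RNAs with reads differed with annotated length. None of the 4755 annotated transcripts of at most 120 nt had a read in either library, and neither did any of the 1285 transcripts of that length of other gene types. The share with reads was 3.62% between 121 and 140 nt, 22.0% between 251 and 300 nt and 50.0% above 350 nt. Transcripts of at most 120 nt made up 97.8% of miRNA, 81.1% of snRNA, 49.7% of snoRNA, 41.02% of misc_RNA and 8.16% of scaRNA annotations. The snRNAs U5, U6 and U7, the Y RNAs that bind Ro60, the RNAs of vault particles, the U8 and U13 snoRNAs, and the imprinted snoRNA clusters SNORD113/SNORD114 and SNORD115/SNORD116 had 0 members among 31, 1310, 156, 812, 9, 28, 39 and 78 annotated transcripts. Nearly all C/D box snoRNAs fell in this range: 93.0% of SNORD transcripts were at most 120 nt and 9 had reads, against 8.88% and 29 for SNORA transcripts. SNORD118 (the U8 snoRNA, 134 nt) and RNU2-1 (191 nt) were also at 0. The plot of detection by length shows the same step in other gene types, and nothing about AS can be read for an RNA at 0 in both.

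**Figure D1:**
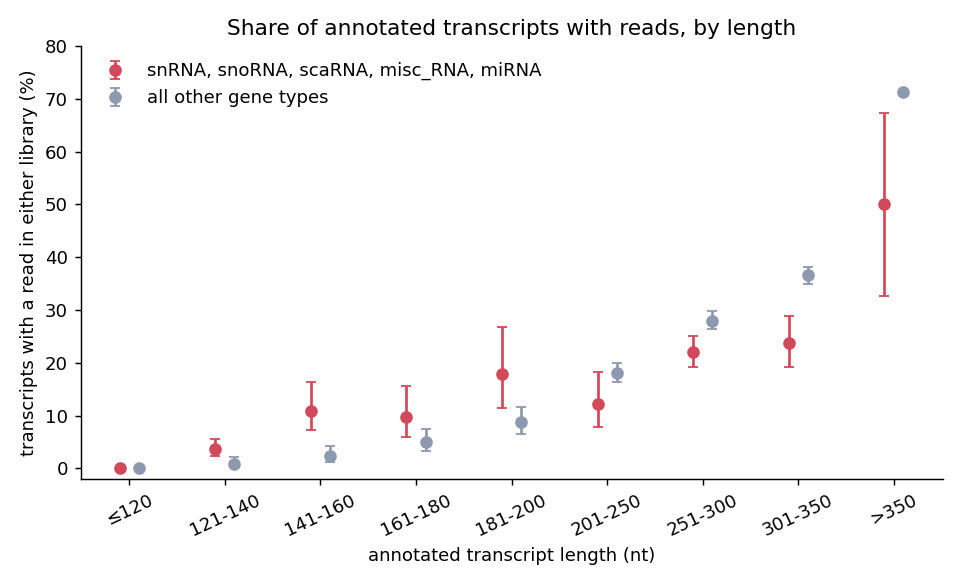
Share of annotated transcripts with at least 1 read in either library (y axis, %) by annotated length (x axis, nt), for the 5 small noncoding types (red) and all other gene types (grey), with 95% Wilson intervals as bars. Both sets are at 0 up to 120 nt, and the small RNAs reach 22.0% at 251 to 300 nt.

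A few RNAs held nearly all of the signal. The members took 8.55% of all deposited values in Ctrl and 8.21% in AS. These are shares of values divided by length, in which overlapping transcripts can count the same reads, and not shares of reads. The 7SK locus has 2 entries that count the same reads, RN7SK under snRNA and 7SK under misc_RNA, and counted once it took these shares to 5.79% and 5.65%. Of the members, 30 of the 348 had at least 20 reads in a library. At the other end 172 had at most 1 read, 120 were above 0 only in Ctrl, 88 only in AS, and 140 in both. By type and with both 7SK entries, summed FPKM was 30896 in Ctrl and 33574 in AS for snRNA (ratio 1.09), 797 and 927 for snoRNA (1.16), 162 and 191 for scaRNA (1.18), 56992 and 65205 for misc_RNA (1.14) and 7.72 and 7.39 for miRNA (0.957). Each was below the protein-coding median of 1.19, but without the 7SK entry the misc_RNA sums were 26564 and 32145 FPKM, a ratio of 1.21 and above it. The median log2 ratio of the 140 members above 0 in both was 0.24, which is also the median over all 138977 transcripts above 0 in both. Both are the log2 value of the ratio of 1.18 that equal read numbers give, so ties at low counts can set them. At 20 reads or more the medians were 0.241 for members and 0.267 for all transcripts. In the scatter of both libraries the members above 10 FPKM lie along the protein-coding line, with RNU1-1 and SNORD3A under it, while those near 1 FPKM, which rest on few reads, spread widely.

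**Figure D2:**
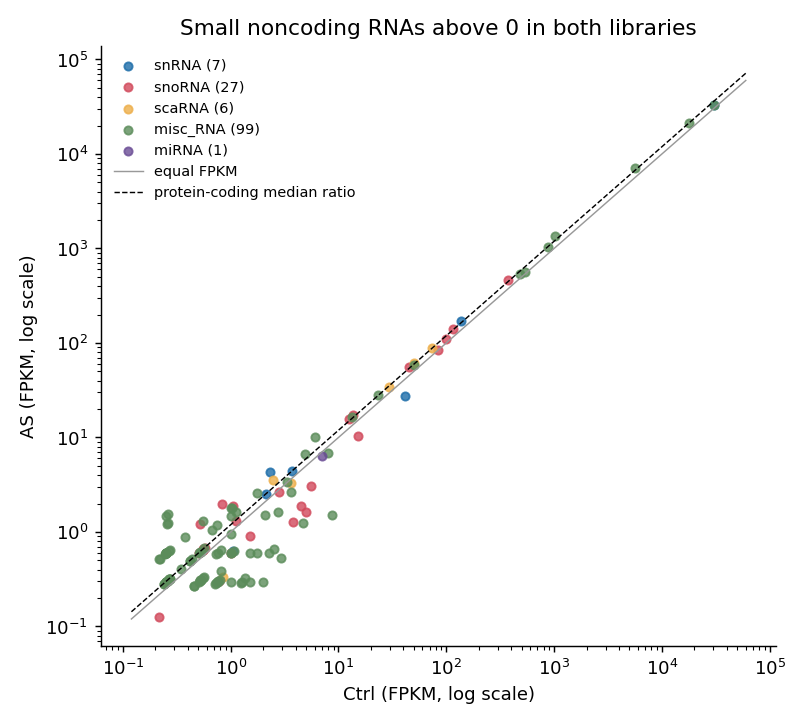
FPKM in Ctrl (x axis) against AS (y axis), both on log scales, for the 140 members above 0 in both libraries, coloured by gene type. The grey line marks equal values and the dashed line the protein-coding median ratio of 1.19. Members with high values follow the dashed line and scatter grows below 10 FPKM.

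The 7SK RNA was the most abundant member, and its AS/Ctrl ratio lay below the protein-coding median. RN7SK had 30705 FPKM in Ctrl (133865 reads) and 33360 FPKM in AS (123444 reads), a ratio of 1.09 (1.08 to 1.09). A second entry, 7SK (ENST00000365328.1, 331 nt), covers the same locus on the same strand and counts the same reads, with 133874 and 123452. RN7SKP203, an intergenic copy on chr2 that is 98.2% identical to RN7SK over the first 220 bases, had 532 and 568 FPKM, a ratio of 1.07 (1.01 to 1.13), also below the protein-coding median. Its reads amounted to 1.75% (Ctrl) and 1.72% (AS) of those of RN7SK, so the copy and the gene kept nearly the same proportion. Among the 300 annotated 7SK loci, 54 were members, and the 52 beside both RN7SK entries had 2597 and 2335 reads in sum, a ratio of 1.06 (1.00 to 1.12).

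The 7SL RNAs were also abundant, and their genes lay on both sides of the protein-coding median. RN7SL1 had 17821 FPKM in Ctrl and 21321 FPKM in AS, a ratio of 1.20 (1.18 to 1.21), whose interval covers the protein-coding median. RN7SL2, which overlaps an exon of ENSG00000282885, had 5598 and 7110.4 FPKM, a ratio of 1.27 (1.25 to 1.29), above that median. RN7SL3 had 480 and 534 FPKM and a ratio of 1.11 (1.04 to 1.19), below it. These source genes are 98.3% (RN7SL2) and 97.7% (RN7SL3) identical to RN7SL1, so reads can be placed in the wrong gene, and their ratios of 1.11 to 1.27 differ by more than counting error. Together the 3 source genes had 95056 and 97786 reads, a ratio of 1.21 (1.20 to 1.22). Of the other 845 annotated 7SL copies 182 were members, with 8110 and 8488 reads and a ratio of 1.23 (1.20 to 1.27). RN7SL4P, antisense to an intron on chr3, had the largest share of these, with 1025 and 1361 FPKM and a ratio of 1.33 (1.27 to 1.38). RN7SL5P, on chr9, had 882 and 1032 FPKM, a ratio of 1.17 (1.12 to 1.23). Relative to the protein-coding median, 7SL as a family was at 1.02 and 7SK at 0.910, which are the ratios after rescaling.

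**Figure D3:**
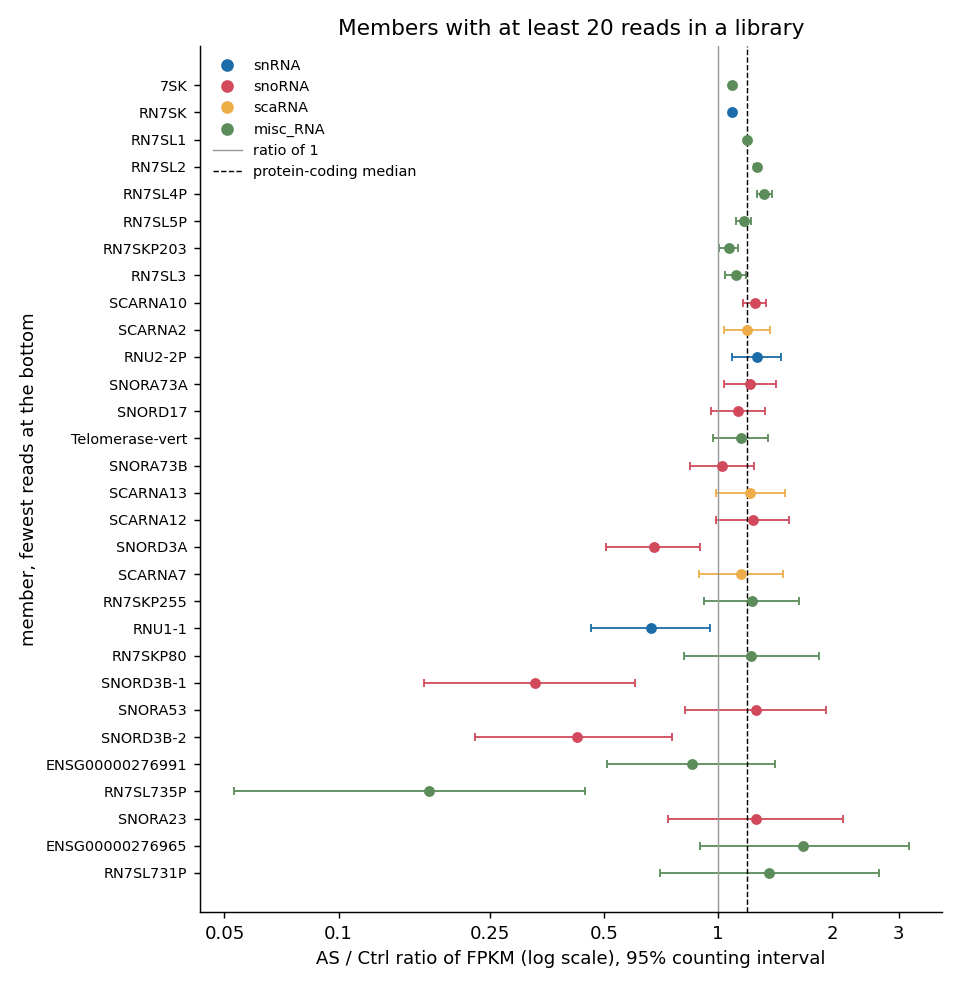
AS/Ctrl ratio of FPKM (x axis, log scale) for the 30 members with at least 20 reads in a library, ordered by reads with the most at the top. Bars are 95% counting intervals and the dashed line is the protein-coding median of 1.19. RNU1-1, SNORD3A, SNORD3B-1, SNORD3B-2 and RN7SL735P have intervals wholly below 1.

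The spliceosomal snRNAs were low and unlike one another. RNU1-1 had 41.3 FPKM in Ctrl (90 reads) and 27.6 FPKM in AS (51 reads), a ratio of 0.668 (0.464 to 0.952) whose interval was below both 1 and the protein-coding median. RNU1-2, RNU1-3 and RNU1-4 have the same 164 bases as RNU1-1, so a read inside the RNA cannot tell them apart. RNU1-2 and RNU1-3 were listed at 0 in both libraries, and RNU1-4 had 5 reads in Ctrl and 8 in AS. All 9 U1 members together had 100 and 61 reads, a ratio of 0.719 (0.514 to 0.998), and without RNU1-1 they had the ratio of equal reads, 1.18. RNU2-2P had 136 FPKM in Ctrl (345 reads) and 172 FPKM in AS (371 reads), a ratio of 1.27 (1.09 to 1.47) that covers the protein-coding median. RNU2-2P lies in an exon of WDR74, whose transcripts summed to 171 and 214 FPKM, and its reads cannot be separated from those of WDR74. RNU4-1 had 7 reads in each library and RNU4-2 had 4 in each. Of the minor spliceosome, RNU11 had 3 reads in Ctrl and 0 in AS and RNU12 had 1 and 0. RNU4ATAC and RNU6ATAC were at 0.

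U3 was the family with the lowest ratio among those with more than 20 reads. It takes in SNORD3B-1 and SNORD3B-2 through a symbol pattern that was widened after values were seen. SNORD3A had 15.2 FPKM in Ctrl (141 reads) and 10.3 FPKM in AS (81 reads), a ratio of 0.677 (0.509 to 0.896). SNORD3B-1 had 4.96 and 1.64 FPKM (50 and 14 reads), a ratio of 0.330 (0.168 to 0.606). SNORD3B-2 had 4.47 and 1.91 FPKM (47 and 17 reads), a ratio of 0.426 (0.229 to 0.756). All of these were lower in AS, and so was SNORD3C with 6 and 2 reads. The first 220 bases of SNORD3A and SNORD3B-1 are 99.5% identical, and those of SNORD3B-1 and SNORD3B-2 are identical, so the copies are not independent measurements. Their annotated lengths, 699, 758 and 791 nt, run far past the U3 RNA, and the table does not say where in them the reads lay. SNORD3D, whose annotation of 218 nt ends near the end of the U3 RNA, was at 0. Over the 8 U3 members of 61 annotated, reads were 249 in Ctrl and 117 in AS, a ratio of 0.554 (0.441 to 0.692), with 2 members above a ratio of 1 and 6 below. Without SNORD3A the ratio was 0.393, which rests largely on SNORD3B-1 and SNORD3B-2.

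The other snoRNAs and the scaRNAs stayed close to the protein-coding shift. SNORD17, in an intron of SNX5, had 98.7 FPKM in Ctrl (311 reads) and 111 FPKM in AS (298 reads), a ratio of 1.13 (0.960 to 1.33), while the annotated SNX5 transcripts summed to 99.1 and 147 FPKM. Of the H/ACA box snoRNAs, SNORA73A had 116 and 141 FPKM, a ratio of 1.22 (1.04 to 1.42). It lies in an exon of SNHG3, so its reads may include that transcript. SNORA73B, in an intron of RCC1, had 83.0 and 85.2 FPKM, a ratio of 1.03 (0.843 to 1.25). SNORA73B reads were 70.8% of SNORA73A reads in Ctrl and 59.8% in AS, and the intervals of their ratios overlap. SNORA53 (13.6 and 17.1 FPKM) and SNORA23 (12.4 and 15.6 FPKM) both had a ratio of 1.26, with intervals that cover 1. SNORA53 overlaps an exon of SLC25A3, so its reads may include that transcript. All 29 H/ACA members of 214 annotated had 673 and 637 reads, a ratio of 1.12 (0.999 to 1.24), with 15 above a ratio of 1 and 14 below.

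The scaRNAs were the type with the largest share of annotated transcripts among the members, 18.4% (9 of 49, 95% Wilson interval 9.98% to 31.4%). That interval covers the share of misc_RNA, 12.2%. The shares are not corrected for length, and 8.16% of scaRNA but 41.02% of misc_RNA annotations are at most 120 nt, where none had reads. SCARNA10, which GENCODE files under snoRNA and which overlaps ENSG00000276232, had 371 FPKM in Ctrl (1629 reads) and 464 FPKM in AS (1728 reads), a ratio of 1.25 (1.17 to 1.34). SCARNA2 had 73.8 and 88.0 FPKM (1.19, 1.04 to 1.37), SCARNA13 had 50.1 and 60.9 FPKM (1.22, 0.988 to 1.499), and SCARNA7 had 29.6 and 34.1 FPKM (1.15, 0.894 to 1.48). None of these intervals excludes the protein-coding median. SCARNA2, within ENSG00000270066, and SCARNA13, within SNHG10, overlap exons of other genes on the same strand, so their reads may include those transcripts. SCARNA12, in an exon of PHB2, had 45.1 and 55.8 FPKM, a ratio of 1.24 (0.991 to 1.54). By symbol, 11 of 24 scaRNAs were members, with 2540 and 2651 reads and a ratio of 1.23 (1.16 to 1.30).

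Only 3 of 1876 miRNA transcripts had a read, and all of these were long hairpin annotations. MIR3648-1 (180 nt, chr21) had 7.11 FPKM in Ctrl (17 reads) and 6.40 FPKM in AS (13 reads), a ratio of 0.901 (0.402 to 1.97). MIR3648-2, another chr21 entry with the same 180 bases, had 0 and 2 reads. MIR499A had 1 and 0. The values are for these hairpin annotations, and the mature miRNA of 21 nt shown above was not analysed here.

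Some other misc_RNA transcripts with at least 20 reads lie within longer RNAs. The Telomerase-vert entry (50.3 and 57.9 FPKM, ratio 1.15, 0.974 to 1.36) lies in TERC, the template RNA of telomerase. ENSG00000276965, within TUG1, had 6.03 FPKM in Ctrl (19 reads) and 10.1 FPKM in AS (27 reads). Its ratio of 1.67 (0.897 to 3.19) was the largest among members with 20 reads or more, and the TUG1 transcripts summed to 493 and 597 FPKM. ENSG00000276991, within MIAT, had 40 and 29 reads (0.854, 0.511 to 1.41).

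At a ratio past 2 with a value above 1 FPKM in the higher library, 9 members were higher in AS and 26 lower, of 90 above 1 FPKM. These are 10.0% and 28.9% of the members, against 6.84% and 2.01% of the 100705 transcripts of the whole table above 1 FPKM. By type, 18 of 53 misc_RNA, 6 of 22 snoRNA, 1 of 8 snRNA, 1 of 6 scaRNA and 0 of 1 miRNA transcripts were lower, and 7 misc_RNA and 2 snoRNA transcripts were higher. Most of these calls rest on under 10 reads, because 1 FPKM in a short RNA takes only a few. With at least 20 reads in the higher library, 0 of 30 members were higher and 3 were lower (SNORD3B-1, SNORD3B-2 and RN7SL735P), against 4.40% and 0.899% of all transcripts. The counting interval excluded 1 for 5 of the 26 lower calls and for 0 of the 9 higher ones. The 5 were SNORD3B-1, SNORD3B-2, RN7SL735P, RN7SL449P and RN7SKP30. RN7SL735P, in an intron of PRKCA, had 8.76 FPKM in Ctrl (34 reads) and 1.52 FPKM in AS (5 reads), a ratio of 0.173 (0.0529 to 0.445), while PRKCA transcripts summed to 64.5 and 48.8 FPKM. RN7SL449P, in an intron of MSI2, had 18 and 4 reads, and RN7SKP30, in an intron of CLOCK, had 13 and 2. MSI2 transcripts summed to 443 and 376 FPKM, and CLOCK transcripts to 30.0 and 35.4 FPKM. Beyond the U3 genes, these pseudogene copies are named because of their values, as are RN7SL5P, SCARNA12, ENSG00000276991 and the Telomerase-vert entry.

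The low members differed by where they lay, a comparison chosen after the values were seen. The 318 members under 20 reads had 575 reads in Ctrl and 393 in AS, a ratio per library total of 0.805 (0.707 to 0.917). The 67552 transcripts of other gene types in the same band of reads had a ratio of 1.23. They were not matched to the members for length. Among them protein-coding and lncRNA transcripts were each at 1.23 and processed pseudogenes at 1.08. At any depth, other types also had fewer reads in AS than in Ctrl in each length range from 121 to 350 nt. They had 5 and 1 at 121 to 140 nt, 14 and 2 at 141 to 160 nt. At 161 to 180 nt they had 36 and 18, and at 181 to 200 nt 87 and 71. Those of 201 to 250 nt had 6129 and 5014, and those of 251 to 300 nt 22459 and 21937. At 301 to 350 nt they had 44418 and 41184, and above 350 nt 23892495 and 23963455. Whether length accounts for the ratio of the members was not tested. Inside introns of another gene on the same annotated strand, 135 low members had 301 and 157 reads, a ratio of 0.615 (0.503 to 0.748). Of these, 94 were below the protein-coding median and 41 above, and equal reads, at 1.18, count as below. Against a ratio of 1, where equal reads count as above, 83 were below and 52 above. Those in introns on the opposite strand, 71 members, had 127 and 89 reads (0.826, 0.622 to 1.09), and the 66 in exons of another gene had 100 and 84 (0.990, 0.732 to 1.34). The 46 intergenic low members had 47 and 63 reads, a ratio of 1.58 (1.07 to 2.36). Of them, 28 were above the protein-coding median and 18 below, while 32 were above a ratio of 1 and 14 below. Of the 46, 25 were at 0 in Ctrl and 11 at 0 in AS, so most were members through 1 library alone. Of the 135 same-strand intronic ones, 29 were at 0 in Ctrl and 55 at 0 in AS. In both sets, a member at 0 in 1 library falls on its side by that 0 alone. The intergenic ratio was 1.93 (1.10 to 3.44) at 1 to 3 reads and 1.27 (0.711 to 2.29) at 4 to 9 reads. Intergenic and same-strand intronic intervals do not overlap. The ratio of 1.23 of other transcripts, the dashed line in the plot by location, lies above the same-strand intronic interval. It lies inside the intergenic interval.

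The intronic difference did not rest on a few loci. Without the member with the most reads the ratio was 0.637, and without the 5 largest it was 0.617 (0.491 to 0.773). It was 0.551 (0.431 to 0.701) in the 107 copies of 7SK and 7SL among them and 0.781 (0.545 to 1.11) in the other 28. The interval of these 28 covers 1 but lies below the protein-coding median of 1.19. Over all same-strand intronic low members the ratio was 0.754 at 1 to 3 reads, 0.482 at 4 to 9 reads and 0.605 at 10 to 19 reads. In these bands all other gene types had 1.32, 1.23 and 1.21, and processed pseudogenes alone had 1.26, 1.08 and 0.996. Of the 131 host genes 127 were above 0 in both libraries. Their values, summed over all annotated transcripts, had a median ratio of 1.17, close to the protein-coding median, with 59 above that median and 68 below. Among the 26 lower calls above, 17 lay in same-strand introns, which held 34 of the 90 members above 1 FPKM. Among the 6 same-strand intronic members with 20 reads or more, which include SNORD17, SNORA73B, SNORA23 and SCARNA7, 2 had ratios above the protein-coding median and 4 below it, and their reads had a ratio of 1.07 (0.967 to 1.19). Reads of unspliced host RNA and of the small RNA itself cannot be told apart in an intron, and whether the counting used the strand is not given in the sources used here.

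**Figure D4:**
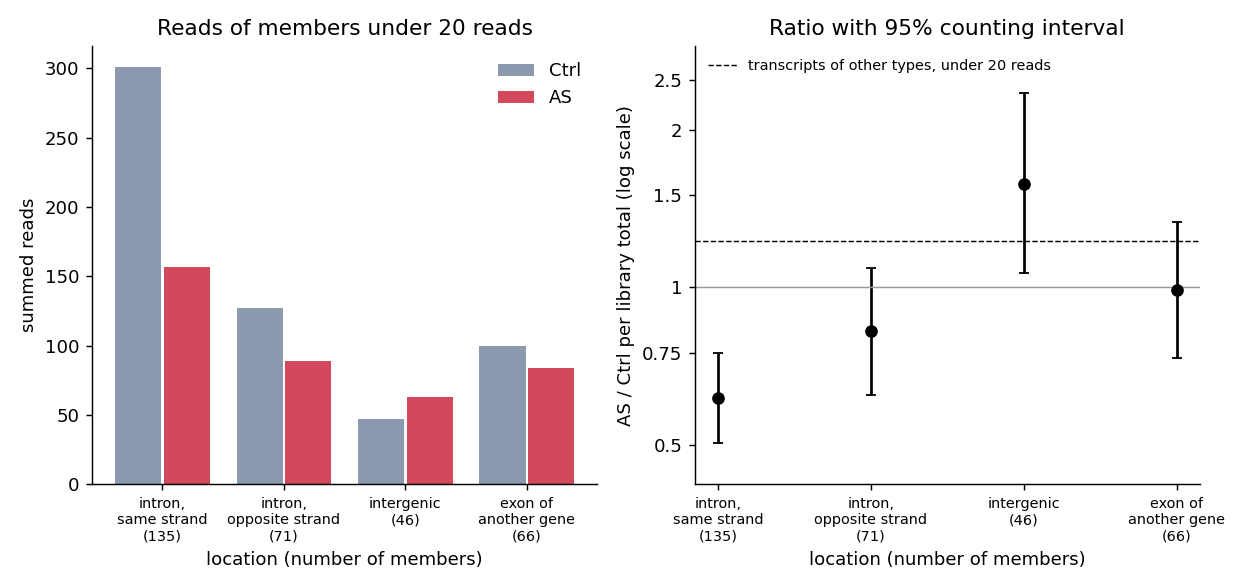
Left, summed reads of the 318 members under 20 reads in Ctrl (grey) and AS (red) by location. Right, the AS/Ctrl ratio per library total (log scale) with 95% counting intervals. The dashed line is the ratio of 1.23 of other gene types under 20 reads, not matched for length. Same-strand intronic members are at 0.615 and intergenic ones at 1.58.

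Beside their host genes, members kept little common order. Across the 90 members above 0 in both libraries with a same-strand host, Spearman's rho between the log2 ratio of the member and that of the host was 0.15, and 59 members were below their host. Members with equal reads sit at a log2 ratio of 0.237 and the median host was at 0.256, so ties tend to count as below. At 20 reads or more, rho was 0.27 over 18 members and 7 were below. These points share both libraries, and several members share reads with an exon of the host, so rho is given as a description.

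Copies closer to the source gene more often had reads. Identity here is matches over the longer length, so a short copy scores low whatever its bases. The 7SK copies run from 62 nt, and no transcript of at most 120 nt had reads. Copy length and identity were not separated. Of 44 copies at least 80% identical to RN7SK, 36.4% had a read, against 11.2% of 107 copies under 70%. For RN7SL1 the shares were 30.6% of 340 copies and 7.02% of 228. The 3 RN7SK copies with at least 20 reads were 82.0% to 87.0% identical to it, and the 6 such 7SL copies 78.6% to 98.3% identical to RN7SL1. The copies with no reads had a median identity of 73.2% to RN7SK and 77.6% to RN7SL1. In the plot of reads against identity, copies with 1 read ranged widely in identity, and the copies with over 1000 reads, RN7SKP203 and 4 7SL copies, were at least 86.3% identical to their source gene.

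**Figure D5:**
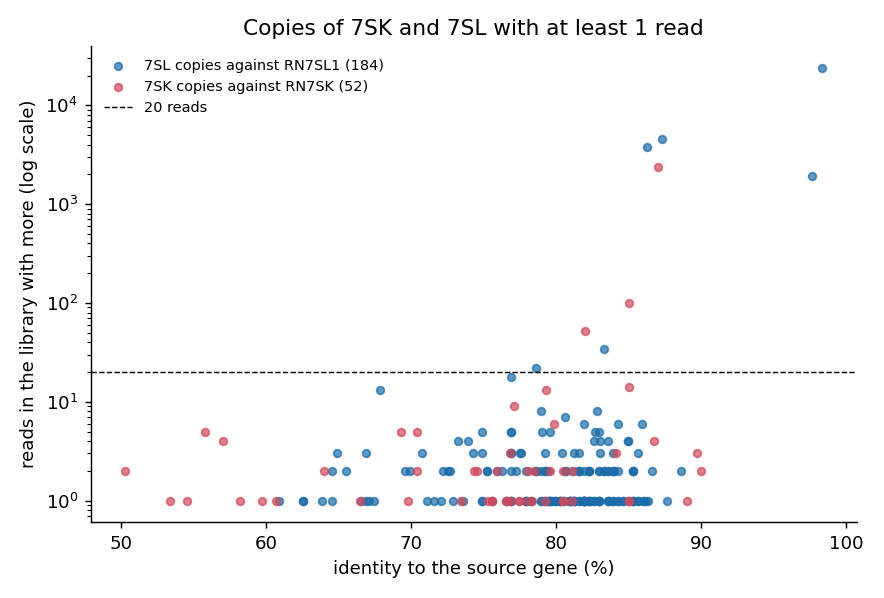
Reads in the library with more (y axis, log scale) against percent identity to RN7SK (red, 52 copies) or RN7SL1 (blue, 184 copies), for copies with at least 1 read. The dashed line marks 20 reads. The copies with the most reads lie at 86.3% identity or above.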

How the data were processed

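RNA-seq of rRNA-depleted total RNA (ISOGEN II, DNBSEQ-G400, 150-bp paired ends) was analysed for 1 Ctrl and 1 AS library of SH-SY5Y. Per the methods, the authors trimmed with fastp, aligned to GRCh38 with HISAT2 (2.1.0 per the labels) and quantified with StringTie on GENCODE release 41. The deposited columns are named TPM, but they summed to 1039719 and 1216810. Each value was a whole number of reads (tolerance 0.02) divided by transcript length and a library total, for 141239 of 141239 Ctrl and 143943 of 143944 AS values, so they were treated as FPKM as the authors' deposited values and reads were recovered. Overlapping transcripts can count the same reads, as both entries of the 7SK locus did. How reads of identical copies were placed is not given in the sources used here.

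Gene types, lengths and coordinates came from GENCODE release 44, which matched 91.1% of identifiers and all 348 members in the same version. A member was called when AS/Ctrl was past 2 or under 0.5 with a value above 1 FPKM in the higher library. Ratio intervals are exact conditional (Clopper-Pearson) intervals and shares have Wilson intervals, both at 95%. The ratio, calling and read recovery were tested on simulated data. Families were set by symbol, and the U3 pattern was widened after values were seen to take SNORD3B-1 and SNORD3B-2, which its own list of copies names. Location is the first that applies of exon of another gene, intron of one, or none, and hosts are summed over their transcripts. Identity is matches over the longer length in a global alignment without end gap costs (Biopython 1.88). Named members are, per type, the 3 of highest mean, the 3 highest and 3 lowest ratios above 10 FPKM with 20 reads, and the functional copies of each family. The members and lists were chosen with earlier results of these data known. Scripts used Python 3.11.15, pandas 2.3.3, numpy 2.4.6, scipy 1.17.1 and matplotlib 3.10.9. The tables of the other libraries list protein-coding genes and were not used here. Alternatives varied the threshold, minimum value, pseudocount, scaling, overlap with exons and largest member.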

Additional observations from a re-analysis of the deposited data

How the results depend on the processing

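No paired analysis was possible because each treatment had 1 library. The counts of 9 higher and 26 lower calls depended on the read and value limits. Higher calls were 16 at a ratio past 1.5, 107 with no minimum value, 0 with a minimum of 10 FPKM, 3 with a pseudocount of 1 and 0 at 20 reads or more. Lower calls were 17 at a ratio past 4, 145 with no minimum value, 0 with a minimum of 10 FPKM and 3 at 20 reads or more. Rescaling the AS values so that the protein-coding median ratio was 1 moved the median log2 ratio over all members to -0.018 (also -0.018 for snRNA, snoRNA and misc_RNA and -0.026 for scaRNA), and the summed ratio to 0.911 for snRNA, 0.976 for snoRNA, 0.988 for scaRNA and 0.959 for misc_RNA. It took 7SK to 0.910. A pseudocount of 1 over all members gave a median of -0.052 over all, -0.41 for snRNA and -0.062 for snoRNA, and members above 10 FPKM had a median of 0.26. Outside the exons of other genes, the median was -0.17 for snRNA and -0.32 for snoRNA, and the summed ratio was 0.742 for snRNA, 0.997 for snoRNA and 1.19 for misc_RNA. That setting leaves out RN7SK, whose locus carries the second 7SK entry. Without its largest member the summed ratio was 1.11 for snRNA, 1.09 for snoRNA and 1.21 for misc_RNA, and U1 went from 0.719 to 1.18. For these shifts beyond the members left out or the scaling itself, the cause was not tested. The comparison of low intronic members and its settings were chosen after the data were seen, as was counting the 7SK locus once, which gave 1.21 for misc_RNA. Depth limits most members: 318 of 348 had under 20 reads, where a ratio past 2 can come from counting error.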

Other observations

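Some structured small RNAs are filed by GENCODE under other types and were not members, and their ratios are given beside the protein-coding median of 1.19. RMRP, the RNA of RNase MRP, which takes part in ribosomal RNA processing, had 3490 FPKM in Ctrl and 4173 FPKM in AS, a ratio of 1.20 (1.17 to 1.23). RPPH1, the RNA of RNase P, which trims tRNA precursors, had 5240 FPKM in Ctrl and 5979 FPKM in AS, a ratio of 1.14 (1.12 to 1.16), below that median. TERC, the telomerase RNA, whose locus also holds the Telomerase-vert member, had 307 reads in Ctrl and 311 in AS (ratio 1.19, 1.02 to 1.40). BCYRN1, a neuronal RNA with 200 nt annotated, had 12 and 9 reads (0.884, 0.329 to 2.28).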
